A study of Mus musculus with 3 samples.

Results

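The circadian clock genes examined here were 10 genes chosen by symbol: Clock, Arntl, Npas2, Per1, Per2, Per3, Cry1, Cry2, Dbp and Nr1d2, out of 30559 genes listed in the count files. They were selected with results of these data in view, because Npas2 had a high level in astrocyte nuclei and because CBP and p300 are known coactivators of the clock, so the level of Npas2 in those nuclei is given as a description. Of the 10 genes, 9 had counts and Per3 had none. The data were single-nucleus RNA-seq of mouse neurosphere cultures derived from the subventricular zone, differentiated on an adherent substrate and harvested at day 15 in vitro, with 1 library for each of 3 groups and therefore no replicates.

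Cultures came from newborn pups and, according to the methods, were infected with a lentivirus. The CBP-ablated library (genotype CBPf/f, loxP sites around an exon of Crebbp) and the p300-ablated library (genotype p300f/f, loxP sites around an exon of Ep300) received Cre recombinase together with mCherry, and the control library received red fluorescent protein without Cre, so the groups also differ in Cre and reporter. They are called the CBP library, the p300 library and control from here on. The labels give tamoxifen as the treatment of all 3 samples, which differs from the methods, and the mouse line of the control cultures is not given in the sources used here. Each library pooled about 15 cultures, and nuclei were sorted on the reporter before 16000 were loaded. There were 4884 nuclei in control, 3017 in the CBP library and 4648 in the p300 library, with 16312170, 12748336 and 18876682 unique molecular identifiers (UMIs, counted molecules). Between 1 and 7 cell barcodes were shared by any pair of libraries. Summed over exons and introns, Crebbp had 335 CPM (its UMIs scaled to one common total for every library) in control and 369.5 in the CBP library, and Ep300 had 114 CPM in control and 115 in the p300 library, so these sums do not check the labels. The time of day of the harvest is not given in the sources used here, and with a single harvest a change of level and a change of phase cannot be told apart.

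In the mammalian clock, CLOCK or its paralog NPAS2 pairs with BMAL1, the product of Arntl, and activates genes that carry E-box elements, CBP and p300 serving as acetyltransferase coactivators. The period (Per) and cryptochrome (Cry) proteins made from such genes then inhibit the pair. In a further loop REV-ERB proteins, including the product of Nr1d2, repress Arntl and other genes through elements shared with ROR activators, and DBP is a clock output factor that activates genes through D-box elements. In the brain, glial cells as well as neurons carry such clocks.

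Promoter stretches of 5 members are shown for the sequence elements through which the loop is known to work. All but Npas2 carry such an element, and the Npas2 window held none of those searched for. That window lies inside the annotated Npas2 gene, which begins at 39193731, so it does not cover the bases before the gene. Dbp and Arntl, which are not shown, likewise had no match, so the lack is not particular to Npas2. The promoter table (RefSeq, GRCm38.p6) matched 9 of the 10 members, all but Per2. The 250 bases before each start were searched on both strands for the E-box CACGTG, its variant CACGTT, the D-box TTANGTAA, the ROR half-site AGGTCA and the cAMP response element TGACGTCA. Capitals mark the matches, and each stretch ends before the first annotated exon base.
Per1 (chr11:69098699-69098947, plus strand): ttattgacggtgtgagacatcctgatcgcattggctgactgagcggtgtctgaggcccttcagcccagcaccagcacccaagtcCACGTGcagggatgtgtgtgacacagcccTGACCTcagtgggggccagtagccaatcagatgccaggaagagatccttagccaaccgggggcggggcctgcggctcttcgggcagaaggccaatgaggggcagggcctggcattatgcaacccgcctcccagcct
Cry1 (chr10:85185065-85185304, minus strand): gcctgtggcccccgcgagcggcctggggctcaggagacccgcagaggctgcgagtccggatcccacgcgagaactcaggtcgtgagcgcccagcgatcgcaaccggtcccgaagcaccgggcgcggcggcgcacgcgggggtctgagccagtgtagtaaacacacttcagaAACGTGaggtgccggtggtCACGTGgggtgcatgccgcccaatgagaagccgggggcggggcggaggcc
Cry2 (chr2:92434070-92434319, minus strand): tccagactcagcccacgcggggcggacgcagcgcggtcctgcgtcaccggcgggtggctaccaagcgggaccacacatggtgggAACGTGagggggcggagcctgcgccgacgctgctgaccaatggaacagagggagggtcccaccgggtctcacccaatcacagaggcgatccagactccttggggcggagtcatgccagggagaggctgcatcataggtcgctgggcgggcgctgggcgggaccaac
Nr1d2 (chr14:18239128-18239356, minus strand): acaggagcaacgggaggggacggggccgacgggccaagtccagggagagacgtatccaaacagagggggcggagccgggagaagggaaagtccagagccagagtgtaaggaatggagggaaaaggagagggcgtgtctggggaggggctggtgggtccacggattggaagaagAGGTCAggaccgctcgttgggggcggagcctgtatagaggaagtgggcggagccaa
Npas2 (chr1:39194022-39194211, plus strand): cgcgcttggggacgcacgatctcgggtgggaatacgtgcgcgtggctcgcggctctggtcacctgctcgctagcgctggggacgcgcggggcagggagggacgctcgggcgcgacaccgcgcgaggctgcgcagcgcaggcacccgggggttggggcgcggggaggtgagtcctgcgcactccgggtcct
The E-box was found in 2 of the 9 members with an entry, at −166 from 1 RefSeq start of Per1 and at −60 of Cry1. It was present in 6.02% of all 32851 promoter windows. Members were counted by gene, and Clock, Arntl and Per1 had more than 1 window each, so members and shares of windows differ in unit. The variant E-box lay at −79 in Cry1 and at −166 in Cry2 and was present in 3.85% of windows. The half-site bound by ROR and REV-ERB proteins lay at −77 in Nr1d2, at −137 in Per1 and in 1 window of Clock, against 14.0% of all windows. Both Per1 matches lay in 1 window inside the annotated gene (69095217 to 69109960), and no other Per1 window matched. The matching Clock window also lay inside its gene, and no other Clock window matched. The D-box was found in Per3 alone among the members, at −205 and −158, against 2.06% of windows, and the cAMP response element in none of the 9, against 1.55%. No match of 1 motif overlapped a match of another, and a match is a description of these letters, not of a bound site.

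The positive arm was considered first. Clock (chromosome 5, 76209868 to 76304792, GRCm38) had 169 CPM in the control library (95% interval 163 to 175), 212 in the CBP library (204 to 220.4) and 189.8 in the p300 library (184 to 196). Both ablated libraries lay above control, with log2 ratios of 0.33 (0.25 to 0.41) and 0.17 (0.10 to 0.24). All intervals cover counting error only, and with 1 library per group no test between groups was possible. Arntl (chromosome 7, 113207465 to 113314126) stood at 98.3 CPM in control (93.6 to 103), 59.5 in the CBP library (55.3 to 63.8) and 85.4 in the p300 library (81.3 to 89.7). The CBP library was thus the lowest for Arntl, at a log2 ratio of −0.73 (−0.85 to −0.60), while the p300 library was at −0.20 (−0.30 to −0.10). Npas2 (chromosome 1, 39193731 to 39363236) stood at 73.4 CPM in control (69.3 to 77.7), 18.1 in the CBP library (15.9 to 20.6) and 24.2 in the p300 library (21.99 to 26.5). Control stood apart for Npas2, with log2 ratios of −2.02 (−2.23 to −1.81) and −1.60 (−1.76 to −1.45) in the ablated libraries.

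Among the inhibitors of the loop, Per1 was nearly level across the libraries, with 20.9 CPM in control, 20.1 in the CBP and 21.6 in the p300 library. Per2 stood at 22.2 CPM in control (19.965 to 24.6), 13.2 in the CBP library (11.3 to 15.3) and 24.8 in the p300 library (22.6 to 27.2). Per2 was thus lowest in the CBP library, at a log2 ratio of −0.75 (−1.02 to −0.48) against 0.16 (−0.04 to 0.36) in the p300 library. Cry1 had 16.2, 16 and 13.9 CPM in the control, CBP and p300 libraries, and Cry2 had 47.0, 38.0 and 42.6. The log2 ratios of Cry1 were −0.02 and −0.22 and those of Cry2 were −0.30 and −0.14, none past 1.5-fold.

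The REV-ERB gene and the output gene followed Per2 in the CBP library. Nr1d2 stood at 37.6 CPM in control (34.7 to 40.7), 20.6 in the CBP library (18.2 to 23.3) and 40.7 in the p300 library (37.9 to 43.7), which gave log2 ratios of −0.87 (−1.08 to −0.65) and 0.12 (−0.04 to 0.27). Dbp stood at 7.85 CPM in control (6.55 to 9.33), 3.84 in the CBP library (2.84 to 5.08) and 5.40 in the p300 library (4.41 to 6.56). Dbp rested on 128, 49 and 102 UMIs, so its log2 ratios of −1.03 (−1.54 to −0.54) and −0.54 (−0.93 to −0.15) were the least precise of the 9.

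**Figure D1:**
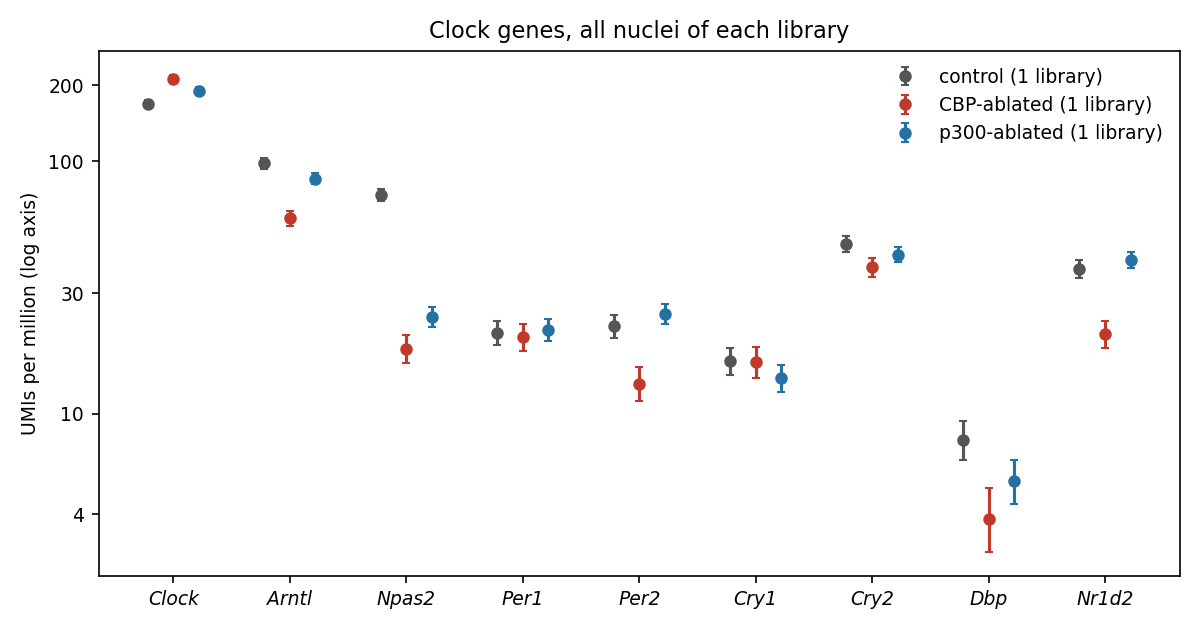
Level of 9 clock genes in all nuclei of each library, in CPM on a log axis, with exact 95% Poisson intervals as bars (counting error only, 1 library per group). Npas2 is at 73.4 in control and at 18.1 and 24.2 in the ablated libraries, whereas Per1 lies between 20.1 and 21.6 in all 3.

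Per3 (chromosome 4, 151003652 to 151044665, minus strand) had 0 UMIs in each library, which allows at most 0.184 CPM in control, 0.235 in the CBP and 0.159 in the p300 library. The gene lies wholly inside Camta1, which is on the same strand (chromosome 4, 150917322 to 151861876) and had 268, 322 and 384 CPM. Counting over whole genes leaves a read that falls in a pair of genes unassigned. Of the 416 protein-coding genes that lie wholly inside another listed gene of the same strand, 414 (99.5%) had no UMI, against 15.2% of 20367 protein-coding genes without such an overlap. The zero of Per3 is therefore not read as absence of its transcript. None of the other 9 members overlapped a listed gene of the same strand.

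At a threshold of 1.5-fold among genes with at least 100 UMIs in both libraries together, 5 of the 9 members with counts were lower in the CBP library than in control (Arntl, Npas2, Per2, Dbp and Nr1d2) and 0 were higher. Of all 11883 genes with this minimum, 9.97% were lower and 7.9% higher. Only Npas2, 1 member, was lower in the p300 library and 0 were higher, against 7.77% and 4.37% of 12247 genes. Between the ablated libraries, 2 members (Per2 and Nr1d2) were lower in the CBP library and 0 higher, against 8.03% and 8.26% of 11956 genes. The median log2 ratio of the 9 members was −0.73 in the CBP library and −0.14 in the p300 library, where the medians of all genes were 0.06 and −0.03. Both comparisons with control share the control library, and the members were picked with such values known, so these counts are a description.

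Nuclei were grouped into 13 clusters, and clusters were named from marker genes. The astrocyte-like cluster, with all 7 astrocyte markers, held 1278 control nuclei and no nucleus of the CBP library (at most 0.0994% of its nuclei) or of the p300 library (at most 0.0645%). Because the cluster comes from 1 library, its profile and that library cannot be told apart. Named classes found in all libraries included glial progenitor-like (Gfap, Aqp4), radial glia or pluripotent stem cell-like (RGC/PSC-like) and neuronal or oligodendrocyte progenitor-like nuclei (NPC/OPC-like). The RGC/PSC and NPC/OPC names follow the authors, and the markers of the NPC/OPC-like class included Pdgfra, Cspg4 and Megf11. The others were committed oligodendrocyte precursor-like, oligodendrocyte-like, immature neuron-like, neuron-like, proliferating-like and microglia-like nuclei. Oligodendrocyte-like nuclei numbered 160 in control, 487 in the CBP and 193 in the p300 library. The remaining 3 clusters stayed unnamed and are called by a leading gene, and in the Ogn cluster 94.02% of nuclei were called doublets.

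Npas2 had its highest level, 226 CPM (211 to 241), in the astrocyte-like nuclei of control. Next came glial progenitor-like nuclei with 99.9 CPM in control (83.7 to 118), 96.2 in the CBP (80.6 to 114) and 124 in the p300 library (109 to 141). RGC/PSC-like nuclei had 32.0, 22.5 and 18.4 CPM, and NPC/OPC-like nuclei had 8.53, 6.98 and 9.14. In committed oligodendrocyte precursor-like nuclei Npas2 was at 2.99, 1.76 and 3.43 CPM, which rested on 5, 5 and 4 UMIs. Among these 4 classes the order was the same in each library, and the steps from glial progenitor-like to RGC/PSC-like to NPC/OPC-like nuclei were wider than the counting intervals. Other clusters lay between glial progenitor-like and RGC/PSC-like nuclei. These were the Ogn cluster (75.3 CPM) and the Cdkn1a cluster (62.1) in control, neuron-like nuclei (26.8) and the Cdkn1a cluster (26.4) together with the Ogn cluster (22.48 against 22.46) in the CBP library, and the Ogn cluster (50.4), the Cdkn1a cluster (34.4) and proliferating-like nuclei (21.5) in the p300 library. Neuron-like nuclei of control, with 25.9 CPM (11.2 to 51.1), could not be ordered against RGC/PSC-like nuclei. Npas2, Rora and Rorb were the only clock genes among the 1617 variable genes used for clustering. With them left out (1614 genes), the level of Npas2 in the astrocyte-like nuclei was again 226 CPM. As the input barely changed, this value is a description and no support for the level.

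Astrocyte-like nuclei contributed 73.9% of the Npas2 UMIs of the control library (71.3 to 76.3, Clopper-Pearson) but 24.0% of the UMIs of all genes. For the other members the corresponding share was 47.7% for Dbp (38.8 to 56.7), 38.3% for Cry1, 36.2% for Arntl, 34.1% for Nr1d2, 32.5% for Cry2, 30.8% for Per1, 26.2% for Per2 and 19.0% for Clock. Clock was thus the only member with a share below that of all genes. With each nucleus thinned to 1500 UMIs, 24.1% of astrocyte-like nuclei held an Npas2 UMI (39.2% unthinned), compared with 13.5% of glial progenitor-like nuclei in control (21.8% unthinned), 9.74% in the CBP and 11.9% in the p300 library. In control, 0 of 391 thinned committed oligodendrocyte precursor-like nuclei held one, which allows up to 0.767% at this thinned depth, and 1.27% held one unthinned, at a median depth of 4194 UMIs against 2992 in astrocyte-like nuclei.

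Slc7a11, an astrocyte marker encoding a cystine transporter, was followed as a measure of RNA that may come from other nuclei. Its level in control was 1119 CPM in the astrocyte-like cluster, 121 CPM in glial progenitor-like, 72.7 in RGC/PSC-like and 24.1 in NPC/OPC-like nuclei. In the CBP and p300 libraries the corresponding values were 32.3 and 42.8, 10.9 and 12.1, and 4.36 and 4.35 CPM. The same share of the astrocyte-like level of Npas2 would come to 24.3, 14.7 and 4.86 CPM in the 3 control classes. For glial progenitor-like nuclei this is below the measured 99.9 CPM, whereas it is above the measured level in 5 further control classes, namely the Cdkn1a cluster (88.5 against 62.1 CPM), the microglia-like nuclei (17.0 against 3.51), the committed oligodendrocyte precursor-like nuclei (8.44 against 2.99), the Gpr149 cluster (6.70 against 3.32) and the immature neuron-like nuclei (8.18 against 7.68). The part of such RNA in the Npas2 levels was not tested. In the ablated libraries, which hold no astrocyte-like nuclei, Npas2 was at 96.2 and 124 CPM in that class. Over all 7 astrocyte markers the summed level was 24402 CPM in the astrocyte-like nuclei and 8446, 6225 and 5985 CPM in the glial progenitor-like nuclei of the control, CBP and p300 libraries.

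Clock, the paralog of Npas2, did not share this distribution. Across classes its level spanned 129.8 to 223 CPM in control, 147 to 275 in the CBP and 121 to 230.1 in the p300 library, a range of 1.71-fold, 1.86-fold and 1.91-fold. In control, astrocyte-like nuclei had 133 CPM (122 to 145), below every other class but the microglia-like nuclei, which rested on 37 UMIs. Npas2 UMIs made up 62.9% of the UMIs of Npas2 and Clock together in astrocyte-like nuclei (60.3 to 65.4). In glial progenitor-like nuclei this share was 39.6% in control (34.4 to 45.1), 34.1% in the CBP (29.4 to 39.0) and 42.4% in the p300 library (38.3 to 46.5), and in NPC/OPC-like nuclei it was 4.54%, 3.59% and 4.61%. The share compares classes and not the amounts of both transcripts, as counts over introns depend on gene length (169506 bases for Npas2 and 94925 for Clock).

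**Figure D2:**
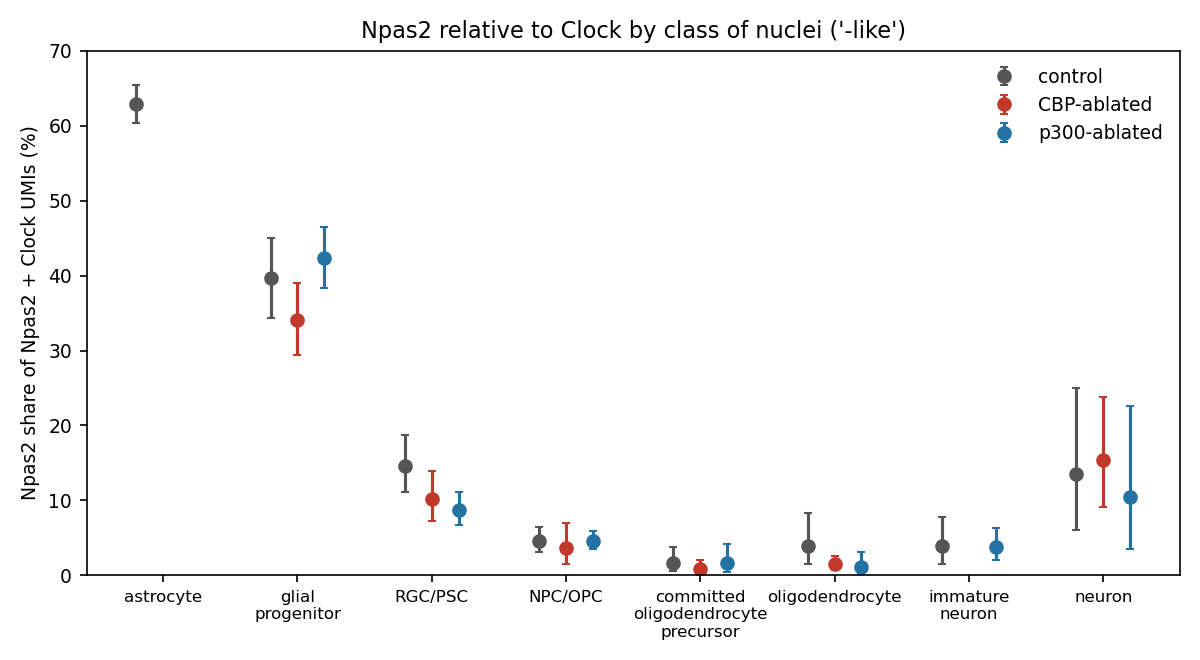
Npas2 UMIs as a percentage of Npas2 and Clock UMIs together (vertical axis) in 8 named classes (horizontal axis), with Clopper-Pearson 95% intervals for 1 library per group. The share falls from 62.9% in astrocyte-like nuclei of control to between 34.1% and 42.4% in glial progenitor-like nuclei and under 5% in NPC/OPC-like nuclei.

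Arntl was highest in RGC/PSC-like nuclei, with 205 CPM in control (184 to 228), 181 in the CBP (160.5 to 203) and 220.2 in the p300 library (204 to 237). Astrocyte-like nuclei had 148 CPM and glial progenitor-like nuclei had 126, 113 and 125 in the 3 libraries. Levels were lower in NPC/OPC-like nuclei (47.4, 39.3 and 41.5 CPM) and in committed oligodendrocyte precursor-like nuclei (28.7, 27.2 and 25.7 CPM). The highest class of Arntl therefore differed from that of Npas2. Per2 also peaked in RGC/PSC-like nuclei, at 57.9, 51.3 and 57.0 CPM, against 1.79, 2.47 and 4.28 in committed oligodendrocyte precursor-like nuclei. Per1 had 47.4, 55.2 and 53.0 CPM in RGC/PSC-like nuclei and 10.2, 6 and 4.28 in those precursors. Cry2 and Nr1d2 peaked in glial progenitor-like nuclei in each library, Cry2 with 105, 92.6 and 112 CPM and Nr1d2 with 55.9, 48.8 and 68.3.

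**Figure D3:**
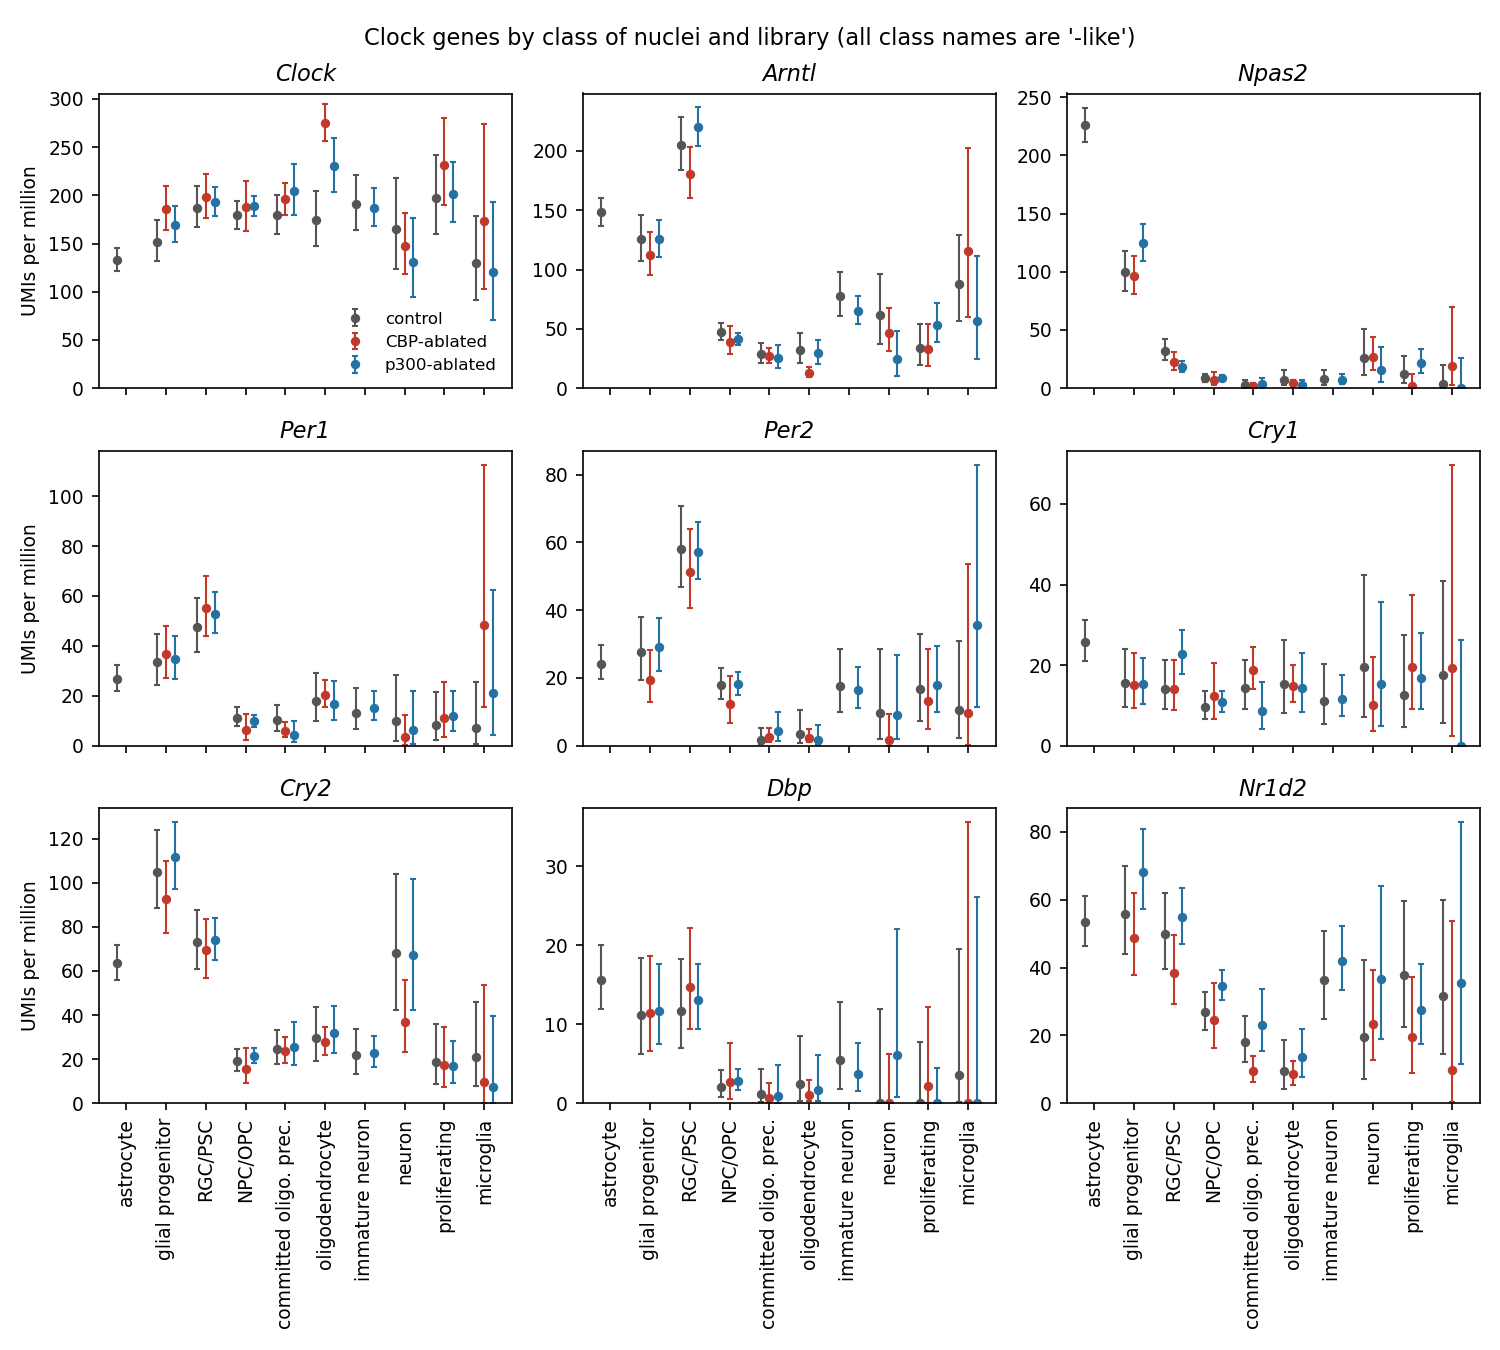
CPM of 9 clock genes (1 panel each, vertical axes from 0) in 10 named classes of nuclei, with points and exact 95% Poisson intervals coloured by library. Clock is of similar level in most classes, whereas Npas2, Arntl, Per1, Per2, Cry2, Dbp and Nr1d2 are higher in the 3 classes at the left than in the oligodendrocyte lineage. Classes with under 100000 UMIs in a library are not drawn.

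To state this contrast as values, glial progenitor-like and RGC/PSC-like nuclei were summed (first sum). They were set against NPC/OPC-like, committed precursor-like and oligodendrocyte-like nuclei together (second sum), a grouping chosen after the levels were seen. The first sum is not defined by astrocyte markers. The summed level of the 7 astrocyte markers was 3686, 2332 and 2500 CPM in RGC/PSC-like nuclei of the control, CBP and p300 libraries. In NPC/OPC-like nuclei it was higher, at 4031, 2892 and 3994 CPM. Npas2 was 9.28-fold higher in the first sum in control, 15.9-fold in the CBP and 7.74-fold in the p300 library. Dbp was 6.17-fold, 11.5-fold and 5.28-fold higher, on 11, 8 and 22 UMIs in the second sum. Arntl was 4.24-fold, 6.41-fold and 4.86-fold higher, Cry2 3.96-fold, 3.33-fold and 3.78-fold, Per2 3.90-fold, 8.98-fold and 3.25-fold, and Per1 3.48-fold, 3.83-fold and 4.63-fold. Nr1d2 was 2.41-fold, 3.76-fold and 1.97-fold higher. The second sum differed in make-up between libraries, so these folds do not compare the libraries class by class. NPC/OPC-like nuclei gave it 3399786, 1145661 and 6894823 UMIs in the control, CBP and p300 libraries. Oligodendrocyte-like nuclei gave it 844100, 2955500 and 1186663. Per2 was at 17.9, 12.2 and 18.1 CPM in the former and 3.55, 2.37 and 1.69 in the latter. The part of this mix in the folds was not tested. Clock was at 0.959, 0.844 and 0.938 of its level in the second sum, so it did not share the contrast. Cry1 was at 1.25, 0.910 and 1.82 of its level in the second sum. Its log2 intervals included 0 in control and the CBP library and lay above 0 in the p300 library (0.46 to 1.28).

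When the astrocyte-like nuclei were left out, the Npas2 level of control came to 25.3 CPM and its log2 ratio to −0.48 (−0.73 to −0.23) in the CBP and −0.06 (−0.28 to 0.15) in the p300 library. Of the members, 2 were then at least 1.5-fold lower in the CBP library (Per2 at −0.71 and Nr1d2 at −0.66) and 0 higher, against 7.17% and 6.05% of 11430 genes. For p300, 0 were lower and 0 higher, against 4.11% and 2.31% of 11878 genes. Arntl was at −0.47 (−0.61 to −0.34) in the CBP library and at 0.05 (−0.07 to 0.16) in the p300 library. Dbp was at −0.49 (−1.05 to 0.06) and −0.00 (−0.46 to 0.47).

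The remaining nuclei also differed in composition, so the level of each class was next weighted by the UMIs of that class in control, over the 11 classes with at least 100000 UMIs in every library. This left out the immature neuron-like nuclei as well as the astrocyte-like cluster, but kept the Ogn cluster (94.02% called doublets) and the Cdkn1a cluster. In these clusters Npas2 was at 75.3 and 62.1 CPM in control and at 22.5 and 26.4 in the CBP library. Slc7a11 was there at 259 and 439 CPM in control. In the CBP library Npas2 was below control in 8 of the 11 classes and above it in 3, with the count minimum in only 1. The part of these clusters in the weighted ratios was not tested. Under these weights no member reached 1.5-fold in either library. The share of all genes past 1.5-fold is not given for the weights, so this count is a description. In the CBP library Per2 was at −0.40 (−0.71 to −0.09), Npas2 at −0.37 (−0.63 to −0.11), Nr1d2 at −0.32 (−0.57 to −0.06) and Arntl at −0.20 (−0.35 to −0.05), and Clock at 0.15 (0.05 to 0.24). In the p300 library Npas2 was at −0.08 (−0.29 to 0.13) and Arntl at −0.04 (−0.16 to 0.09), and Nr1d2 was above control at 0.26 (0.07 to 0.45). In the CBP library the differences of Npas2, Arntl, Dbp, Per2 and Nr1d2 were thus smaller under these weights than over all nuclei. For Npas2 the ratio was −2.02 over all nuclei, −0.48 without the astrocyte-like cluster and −0.37 with the weights.

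**Figure D4:**
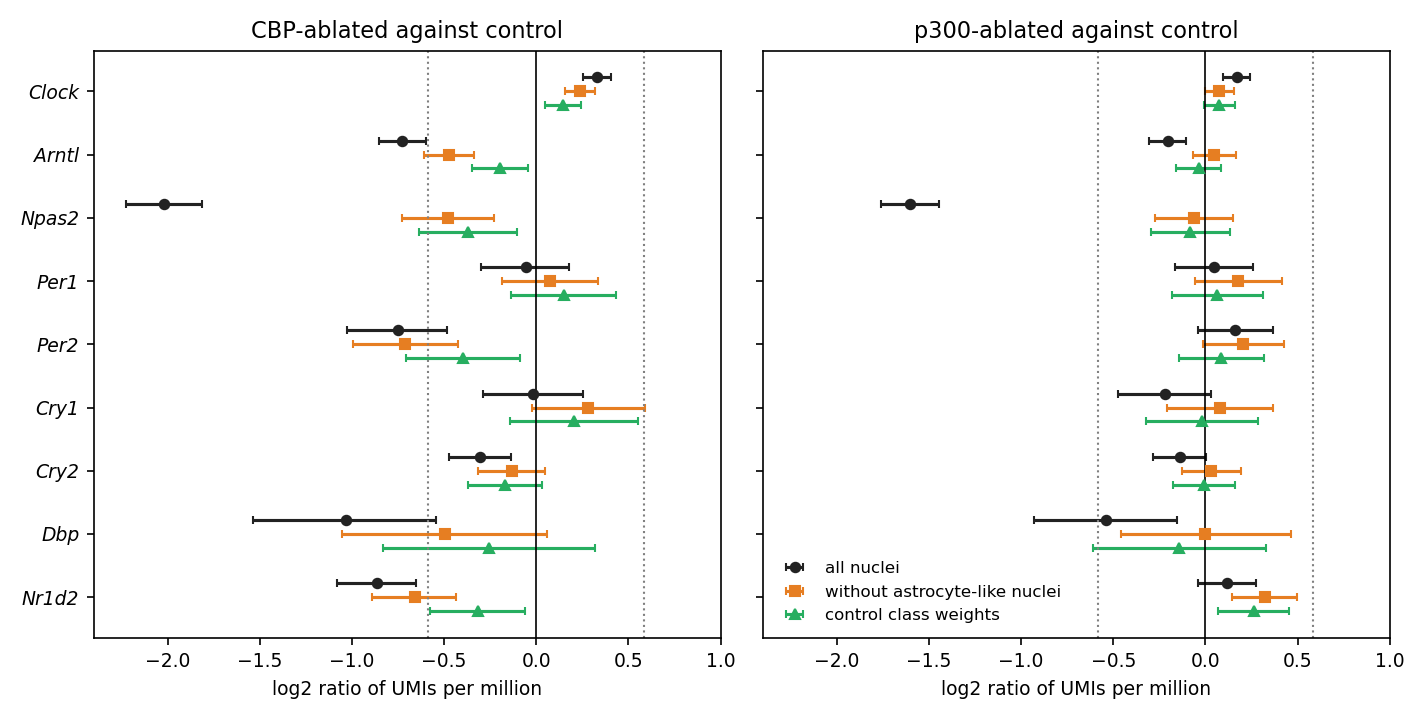
Log2 ratios of 9 clock genes for each ablated library against control (horizontal axis) with 95% counting intervals. Ratios are over all nuclei (black circles), without astrocyte-like nuclei (orange squares) and with 11 classes weighted as in control (green triangles). The 11 classes leave out the astrocyte-like and immature neuron-like nuclei. Dotted lines mark 1.5-fold. Npas2 moves from −2.02 to −0.48 and −0.37 in the CBP and from −1.60 to −0.06 and −0.08 in the p300 library.

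Within single classes, 25 pairs of a member and a class had at least 100 UMIs in the CBP and control libraries together. Of these, 1 was at least 1.5-fold lower and 1 higher, against 5.49% and 6.4% of all 35229 pairs of a gene and a class. The higher pair was Clock in oligodendrocyte-like nuclei, with 275 CPM in the CBP library (256 to 294), 230.1 in the p300 library (204 to 259) and 174 in control (147 to 205). The log2 ratio was 0.66 (0.40 to 0.92) for the CBP and 0.40 (0.11 to 0.70) for the p300 library. Arntl in the same nuclei was at 13.2 CPM (9.38 to 18.0) in the CBP library, 29.5 in the p300 library and 32.0 (21.1 to 46.5) in control, a pair that fell short of the count minimum with 39 and 27 UMIs. The lower pair was Arntl in the unnamed Cdkn1a cluster, with 106 against 162 CPM and a log2 ratio of −0.62 (−1.40 to 0.10), an interval that included 0. The astrocyte markers moved with this pair, as all 7 were below control in the CBP library, with a summed level of 1190 against 4575 CPM and none at 0, and their part in the result was not tested.

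For the p300 library 31 pairs had this minimum, of which 1 was lower and 0 were higher, against 2.85% and 4.43% of 40185 pairs. The lower pair was Npas2 in RGC/PSC-like nuclei, with 18.4 CPM (14.0 to 23.7) in the p300 library, 22.5 (15.6 to 31.2) in the CBP library and 32.0 (23.9 to 42.0) in control. The log2 ratio was −0.80 (−1.36 to −0.23) for the p300 library. Astrocyte markers moved with this result, as 6 of 7 were below control in these nuclei of the p300 library, with a summed level of 2500 against 3686 CPM and none at 0, and Slc7a11 was at 12.1 against 72.7 CPM. Their part in the result was not tested. In glial progenitor-like nuclei the levels of Npas2 were 96.2 CPM in the CBP library and 99.9 CPM in control, a log2 ratio of −0.05 (−0.41 to 0.30), and the p300 library lay at 0.32 (0.01 to 0.63). Nr1d2 had 3 classes with the count minimum in the CBP comparison, at −0.20 in glial progenitor-like, −0.37 in RGC/PSC-like and −0.13 in NPC/OPC-like nuclei, all within 1.5-fold and with intervals that included 0. Over all 11 classes, with no count minimum, Nr1d2 was below control in 9 and above it in 2. The interval lay wholly below 0 in 1 class and wholly above 0 in 0. All classes come from the same libraries and are no replicates. Such counts by direction are not given for all genes, so they are a description.

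A further 35 genes with textbook roles in the clock were examined as a list, of which 33 had the count minimum. In the CBP library 7 of them were at least 1.5-fold lower and 1 was higher, and in the p300 library 2 were lower and 0 higher, next to the shares of all genes given above. The medians of the list were 0.12 and −0.01. Without the astrocyte-like nuclei, 2 of 31 were lower and 0 higher in the CBP library, and 0 of 33 were lower and 1 higher in the p300 library. The shares of all genes were then 7.17% lower and 6.05% higher in the CBP library, and 4.11% and 2.31% in the p300 library. Of the nuclear receptors that act on the same elements as Nr1d2, Rora had the most UMIs. It lay at −0.56 (−0.59 to −0.54) in the CBP library but at 0.30 (0.28 to 0.32) in the p300 library. With the class weights Rora was at −0.14 in the CBP and 0.19 in the p300 library. Rorb was at −1.51 (−1.58 to −1.45) and −1.04 (−1.10 to −0.99), and its level in astrocyte-like nuclei was 1217 CPM. Without those nuclei Rorb came to −0.70 and −0.23, and with the class weights to −0.46 and −0.28, within 1.5-fold. Of the 9 classes with the count minimum, Rorb was below control in 8 in the CBP library and at least 1.5-fold lower in 6. The exception was the glial progenitor-like nuclei, at 0.16 (0.03 to 0.29). The 6 were RGC/PSC-like, committed oligodendrocyte precursor-like and oligodendrocyte-like nuclei and the unnamed Cdkn1a, Gpr149 and Ogn clusters. The Cdkn1a cluster (45 against 401 UMIs) and the Ogn cluster (47 against 190) met the minimum through control, where Slc7a11 was at 439 and 259 CPM. In the p300 library Rorb was below control in 7 of 10 such classes and at least 1.5-fold lower in 3. These were committed oligodendrocyte precursor-like and oligodendrocyte-like nuclei and the Cdkn1a cluster. Of all pairs of a gene and a class, 5.49% and 2.85% were lower. The part of RNA from other nuclei in these ratios was not tested. Nr1d1 was at −0.74 (−1.34 to −0.16) and −0.41 (−0.89 to 0.08) over all nuclei, and at −0.29 and 0.04 without astrocyte-like nuclei. The 3 repressors Bhlhe40, Bhlhe41 and Ciart were at −0.83, −0.83 and −0.70 in the CBP library, of which only Bhlhe41, at −0.67, was past 1.5-fold in the p300 library. Without astrocyte-like nuclei none of the 3 was called in the CBP library, where Bhlhe40 was at −0.29 and Bhlhe41 at −0.46 and Ciart had too few UMIs, and Bhlhe40 was higher in the p300 library at 0.62 (0.32 to 0.92). With the class weights Bhlhe40 was at 0.03 in the CBP and 0.61 in the p300 library. Usp2, a ubiquitin protease that acts on clock proteins, was at −0.69 and 0.05 over all nuclei and at −0.57 and 0.18 without astrocyte-like nuclei. With the class weights it was at −0.30 (−0.52 to −0.09) in the CBP and 0.10 in the p300 library. Nfil3, a repressor at D-box elements, was at 0.59 and −0.03 over all nuclei, but at −0.32 (−0.84 to 0.20) in the CBP library with the class weights. Timeless was at 0.41 and 0.53 over all nuclei and at 0.03 and 0.15 without astrocyte-like nuclei. With the class weights it was past 1.5-fold higher in the CBP library, at 0.65 (0.20 to 1.10), and at −0.06 in the p300 library. None of the 5 kinases (from 0.05 to 0.26 and from −0.24 to 0.36) and none of the 12 cofactors (from −0.01 to 0.43 and from −0.25 to 0.40) was past 1.5-fold. The cofactors include the targeted genes Crebbp and Ep300, whose sums over exons and introns do not check the labels.

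Hlf, a D-box activator of the same family as Dbp, stood at 57.5 CPM in control (53.9 to 61.3), 16.1 in the CBP (14.0 to 18.4) and 38.6 in the p300 library (35.8 to 41.5). Its level in astrocyte-like nuclei was 116 CPM, the highest of all classes. Without astrocyte-like nuclei its log2 ratio was −1.28 (−1.53 to −1.04) in the CBP and −0.02 (−0.19 to 0.15) in the p300 library, and with classes weighted as in control it was −0.99 (−1.28 to −0.71) and −0.13 (−0.32 to 0.06). Hlf was at 33.0 CPM in the CBP library, 55.1 in the p300 library and 65.6 in control in glial progenitor-like nuclei, at 19.3, 39.6 and 60.4 in RGC/PSC-like nuclei and at 18.3, 38.6 and 35.3 in NPC/OPC-like nuclei. In all 3 of these classes, the ones with the count minimum, the CBP library was over 1.5-fold below control, at −0.99 (−1.54 to −0.46), −1.65 (−2.29 to −1.05) and −0.95 (−1.69 to −0.27). The UMIs were 46 against 88, 30 against 98 and 21 against 120, so the minimum was met mainly through control. The Gpr149 cluster, with 36 against 20 UMIs and a ratio of −0.10, fell short of it. Hlf also had the lowest ratio of the list over all nuclei of the same libraries. The 3 classes are therefore a description. The 5.49% of all pairs of a gene and a class that were lower in the CBP library is no measure for them. Astrocyte markers moved with Hlf, as all 7 were below control in the CBP library in each of these 3 classes. Their summed levels were 6225 against 8446, 2332 against 3686 and 2892 against 4031 CPM, with none at 0. Their part in the result was not tested. Of the 10 classes with Hlf UMIs in both libraries, 9 had a ratio below 0, but only 3 of the 10 had the count minimum. The intervals included 0 in oligodendrocyte-like, neuron-like and proliferating-like nuclei and in the Gpr149 and Cdkn1a clusters. Rorb was likewise below control in the CBP library in 10 of 11 classes. These classes are no replicates, and counts by direction are not given for all genes. For p300, 1 of 4 classes with the minimum was past 1.5-fold, the RGC/PSC-like nuclei at −0.61 (−1.001 to −0.21). Among all pairs of a gene and a class, 2.85% were lower in the p300 library.

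The genes most like 3 members were sought by Pearson correlation of log2(CPM + 1) over 36 sums of a class in a library, among 8521 genes with at least 500 UMIs. The 5 nearest to Npas2 were Ppargc1a (0.85), Atp1b1 (0.85), Slc4a4 (0.85), Kcnn3 (0.85) and Plcd4 (0.84). The 5 nearest to Arntl were Mcc (0.91), Itga1 (0.90), Wwtr1 (0.90), Clybl (0.88) and Palld (0.88), and those nearest to Dbp were A830019P07Rik (0.82), Erich3 (0.79), Igsf8 (0.77), Nwd1 (0.76) and Tom1l2 (0.76). Among the members themselves, Npas2 and Cry2 gave 0.79, Arntl and Per2 0.78, and Per2 and Nr1d2 0.74, while Clock gave −0.15 with Npas2 and −0.25 with Arntl. The 36 sums share libraries, classes and depth, so these values are descriptions.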

How the data were processed

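Single-nucleus RNA was measured in 3 libraries, assigned to control, CBP-ablated and p300-ablated by their genotype labels. The authors used Cell Ranger 3.1 with the GRCm38 genome and deposited raw UMI counts per gene and nucleus, in which intronic reads are included. All nuclei were kept, with medians of 3219, 4016 and 3902.5 UMIs. The members and all gene lists were chosen with earlier results of these data known.

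Clustering used Seurat 5.3.0 under R 4.3.3 (1617 variable genes, 20 principal components, 30 neighbours, resolution 0.6). A cluster was named when at least 60% and at least 3 of the markers of a class each had a UMI in at least 10% of its nuclei and a level at least 2-fold that of all other nuclei, with 1 CPM added. Doublets were called with Scrublet in scanpy 1.11.5 at 0.8% per 1000 nuclei (191, 73 and 173 nuclei) and kept outside the alternatives.

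UMIs were summed per library or class, classes with under 100000 UMIs left out, and divided by the total to give CPM. Intervals are exact Poisson, Clopper-Pearson or conditional binomial at 95% (normal for weighted ratios) and cover counting error only. A count of 0 was given the limit of 3 counts. With 1 library per group no p-value was computed. The ratio calculation was run on simulated counts drawn from the control library with counting error only. Such counts hold no variation between libraries of a group, so they cannot show how far the ratios would repeat. Gene positions came from GENCODE M21, which held 30410 of the 30559 genes. Genes were named when they were members, on the list of other clock genes, markers, or among the 5 genes most correlated with Npas2, Per3, Dbp or Arntl (none for Per3, which had no UMI); Camta1 and the leading genes of unnamed clusters were added after their values were seen. Python 3.11.15, numpy 2.4.6, scipy 1.17.1, pandas 2.3.3 and matplotlib 3.10.9 were used.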

Additional observations from a re-analysis of the deposited data

Results flagged for a closer look

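In the p300 library against control, the CPM of Npas2 pointed in opposite directions in 2 classes of nuclei. This difference between classes was not tested, as each group had 1 library. The log2 ratio was 0.32 (0.01 to 0.63) in glial progenitor-like nuclei and −0.80 (−1.36 to −0.23) in RGC/PSC-like nuclei, on 244 against 134 and 59 against 52 UMIs. The first of these was within 1.5-fold. The share of thinned nuclei with an Npas2 UMI did not show opposite directions. It was 11.9% in the p300 library and 13.5% in control in glial progenitor-like nuclei. In RGC/PSC-like nuclei it was 2.16% (1.26 to 3.44) and 2.73% (1.42 to 4.73). Slc7a11, the astrocyte marker, was at 121 and 72.7 CPM in these classes of control and at 42.8 and 12.1 CPM in those of the p300 library, and its part in the difference was not tested.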

How the results depend on the processing

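No paired analysis was possible because each group had 1 library and the labels give no replicate numbers, so no replicate could be left out. The counts of members at least 1.5-fold lower than control moved as follows. In the CBP library the count of 5 came to 3 with nuclei thinned to 1500 UMIs, 2 without the astrocyte-like cluster and 0 with the class sizes of control as weights. In the p300 library the count of 1 came to 2 with the mean of single nuclei, 0 without the astrocyte-like cluster and 0 with the weights. Between the ablated libraries the count of 2 came to 4 when centred on the median of all genes or on the trimmed weighted mean (a shift of 0.11), and to 0 with the weights. With the weights Nr1d2 was at −0.58 (−0.82 to −0.33), just within 1.5-fold, and Per2 at −0.48 (−0.78 to −0.19). Over all nuclei their ratios between the ablated libraries were −0.98 and −0.91. Counts of higher members stayed at 0 under these alternatives. The share of all genes is given above for leaving out the astrocyte-like cluster and for no other alternative. The counts of members and pairs in this paragraph are therefore descriptions. Within named classes, the count of lower pairs in the CBP library was 0, and 2 at resolution 0.3 and 1 at resolution 1.2. In the p300 library the higher pairs went from 0 to 1 at resolution 1.2, and the lower pairs from 1 to 0 when 10% free RNA was subtracted, where the ratio of Npas2 in RGC/PSC-like nuclei was −0.63 and its UMIs fell under the minimum. The Npas2 level in astrocyte-like nuclei was 242 CPM after that subtraction and between 226 and 228 CPM under the other alternatives. Per2 in the CBP library came to −0.33 with thinning and −0.40 with the weights, from −0.75. The causes were not tested. Of the alternatives for counts and for the Npas2 level, 76 left the value the same and 14 moved it. For single ratios 250 left it the same and 32 moved it, with no called ratio changing sign. The 250 include 27 ratios under each changed UMI minimum (none, or 20 in each library), which could not move, as only the filter changed. Ratios between the ablated libraries also could not move without the astrocyte-like cluster, which holds none of their nuclei. The tally is therefore no measure of stability. Depth limited Dbp most, and within classes only 25 and 31 pairs had enough UMIs.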
